A study of Pleurotus tuoliensis with 9 samples.

Results

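Mycelium of *Pleurotus tuoliensis*, the Bailing mushroom, was compared after severe heat at 36 °C and at the control temperature of 25 °C. The comparison, written SHT&CK, took 6 of the 9 libraries of the series by their labelled temperature, 3 of group SHT (36 °C) and 3 of group CK (25 °C). Another group of 3 libraries, MHT (32 °C), entered the same model. It is used to place a value between both temperatures, to rank unigenes by a level that neither group sets, and for the comparisons SHT&MHT and MHT&CK. All libraries came from 1 strain, Zhongnong No.1, grown in the dark on potato dextrose agar at 25 °C for 9 days. The SHT and MHT plates were moved to the warmer incubators on day 10 while the CK plates stayed at 25 °C, and mycelium was taken on day 13 after 96 h. The study took each group from 3 separate plates that were started from 1 initial plate, so the replicates are cultures of 1 genotype and say nothing of other strains. The deposited table holds whole-number counts for 13953 unigenes, of which 13018 had a count above 0 in all 9 libraries and were tested. Each unigene, a transcript locus, is annotated with the protein it matched. The descriptions were informative for 3171 unigenes, and the other 10782 named only a hypothetical or uncharacterized protein.

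Fungal cells meet heat with chaperones, proteins that hold, refold or assemble other proteins, and with changes of membrane sterols, storage sugars and the machinery of translation. Mushroom-forming fungi grow as hyphae that extend at their tips, coat themselves with hydrophobins and related small secreted proteins, and feed by secreting enzymes that cut cellulose, hemicellulose and lignin. Growth at the tip also draws on chitin and glucan synthases, vesicle traffic and the cytoskeleton.

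The libraries held 3925786 to 5014053 counts in CK and 4764179 to 5917149 in SHT. Expression is given as CPM, counts relative to the size of the library after TMM scaling, and the term DEG is used for unigenes whose log2 fold change was above 1 or below -1 at an adjusted p under 0.05 in the quasi-likelihood test of edgeR. "Rose" and "fell" are written only of DEGs. A pair of libraries stood apart from their groups. In Euclidean distance of log2 CPM, SHT replicate 2 lay 65.9 and 67.6 from SHT replicates 1 and 3, which were 43.0 apart, and MHT replicate 3 lay 75.6 and 71.3 from MHT replicates 1 and 2, while SHT replicate 2 and MHT replicate 3 lay 61.2 apart, nearer to each other than to their own groups. Each CK library was nearest to another CK library. The cause was not tested. Several of the unigenes with the largest rises were least raised in SHT replicate 2 and already raised in CK replicate 2. Values without a library stand beside the unigenes and class counts below where leaving it out ended a call or moved a fold change or a count by more than 1.5 times. Between 93.0% and 94.7% of the counts of every library fell on unigenes whose match is a *Pleurotus* protein. Of the markers of vegetative mycelium, hydrophobins, a cerato-platanin and laccases were all detected. Markers of meiotic cells were reduced to 1 unigene, Gene_20306, described as meiotic recombination, at 6.74, 9.11 and 8.73 CPM at 25 °C and 12.3, 20.6 and 14.1 at 36 °C. It did not pass the test (log2 fold change 0.92) and passed without CK replicate 2 (1.001) or without SHT replicate 1 (1.06). The names Dmc1, Spo11, Msh4, Msh5, Hop1 and Rec8 matched no description. In whole mycelium, fewer cells of a kind and less RNA per cell cannot be told apart.

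Severe heat changed 2821 of the 13018 unigenes tested (21.7%), with 1408 higher (10.8%) and 1413 lower (10.9%) in SHT. The log2 fold changes were spread evenly about 0, with a median of 0.01 and 50.5% above 0, and 90% of them lay between -1.45 and 1.46. Changes beyond 8-fold were few, 59 upward and 48 downward. Of the DEGs, 250 were also higher and 265 also lower in SHT than in MHT (SHT&MHT called 5.65% of all unigenes, 2.79% higher and 2.87% lower), and 5 had moved the other way at 32 °C, where MHT&CK called 8.17%, 3.85% higher and 4.32% lower. Without SHT replicate 2 the count was 2837, without MHT replicate 3 it was 2835, and the lowest count with 1 library left out was 2388, without SHT replicate 3. Over all unigenes tested, 55.9% had CPM values that did not overlap between CK and SHT. Unigenes were also ranked by their mean CPM in MHT, which neither side of the comparison uses, and cut into 10 bins. The bin with the highest levels held 20.4% lower and 8.30% higher, with a median log2 fold change of -0.23. In the other 9 bins the share lower was 7.99% to 11.3% and followed no order of level, and the share higher was 8.76% to 14.1%, largest in the bin with the lowest levels.

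Counts were spread over more unigenes at 36 °C. The number of unigenes that together held 50% of a library was 680, 858 and 785 in CK, 932, 966 and 998 in MHT, and 1211, 1116 and 1159 in SHT. The 100 most counted unigenes of each library took 25.3%, 20.6% and 22.2% of the counts in CK and 14.9%, 16.9% and 15.6% in SHT. The groups did not overlap in either measure (exact permutation test of SHT against CK, two-sided p = 0.1, the smallest that 3 against 3 allows). When every library was thinned to 3925786 counts, 618, 568 and 607 of the 13953 unigenes were without a count in CK, against 415, 491 and 444 in SHT.

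**Figure D1:**
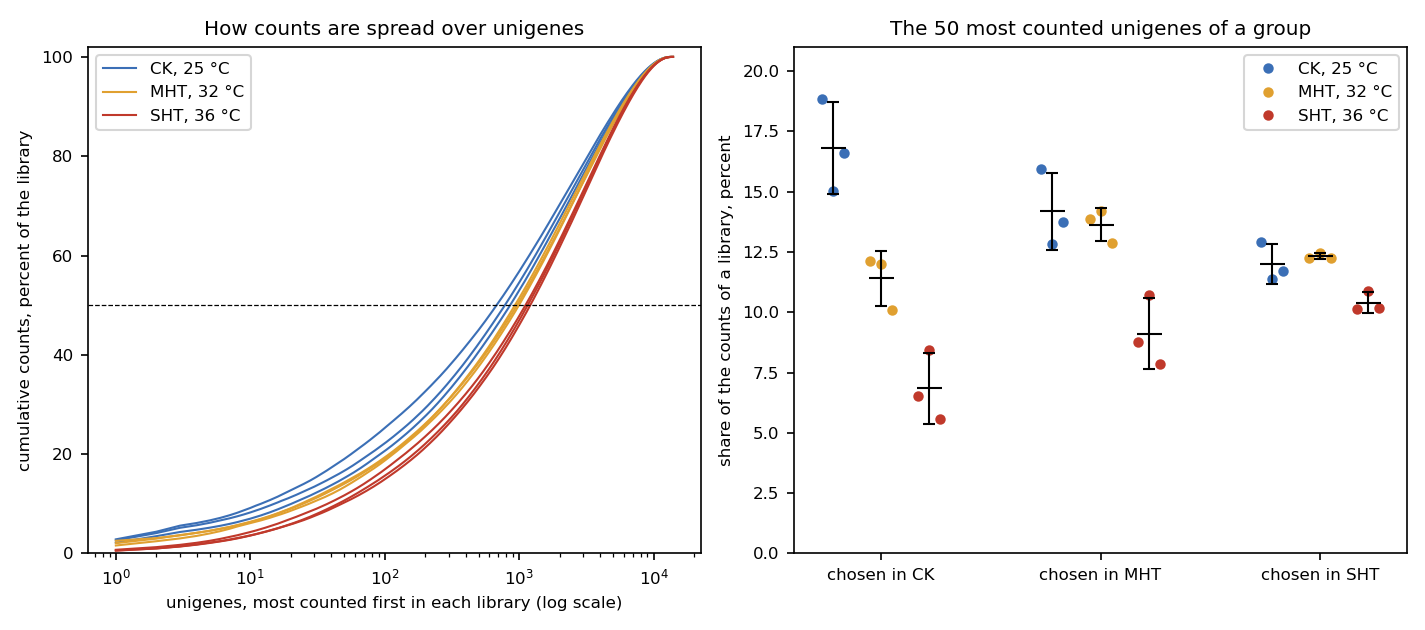
Left, cumulative share of a library's counts (percent) over its unigenes, ranked from the most counted on a log axis, 1 line per library. Right, share of a library's counts taken by the 50 most counted unigenes of CK, MHT or SHT, 1 point per library, with bars for mean ± SD (n = 3). The SHT lines lie below the CK lines, and the share of the unigenes chosen in CK falls from 16.8% to 6.85%.

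The most counted unigenes of the control lost most of their share. The 50 unigenes with the largest mean share in CK took 18.8%, 15.04% and 16.6% of the counts in CK, 12.1%, 12.02% and 10.1% in MHT and 6.54%, 8.45% and 5.55% in SHT, and 35 of the 50 fell, while 15 did not pass. Since they were chosen for a high level in CK, these values are a description and are not tested. The 50 most counted unigenes of MHT, a choice that used neither group, took 15.96%, 12.8% and 13.8% in CK and 8.77%, 10.7% and 7.83% in SHT (exact permutation test, two-sided p = 0.1, the smallest possible). Of these, 17 fell, 7 rose and 26 did not pass. The 50 most counted unigenes of SHT took 12.9%, 11.4% and 11.7% of the counts in CK and 10.1%, 10.9% and 10.2% in SHT. The top of the SHT libraries thus held less of them than the top of the CK libraries did.

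Of the 20 most counted unigenes of CK, 16 fell and only 1 has an informative description. The first of them, Gene_15859, described as a hypothetical protein, took 2.83, 2.13 and 2.62% of the counts in CK, 2.54, 2.06 and 1.59% in MHT and 0.404, 0.418 and 0.442% in SHT. It fell in SHT with an edgeR log2 fold change of -2.86 ± 0.31 (SE, adjusted p = 7.06e-05), while its log2 fold change at 32 °C was -0.44 and did not pass. In SHT&MHT it fell by -2.42 (edgeR adjusted p = 0.00188). Gene_22185 went from 1.54, 1.33 and 1.47% to 0.275, 0.724 and 0.167%, with SHT replicate 2 well above both others (-2.17, and -2.98 without SHT replicate 2). Gene_21124 went from 1.22, 0.845 and 1.07% to 0.233, 0.32 and 0.197% and was already at 0.246, 0.289 and 0.363% at 32 °C. Both are described only as hypothetical proteins.

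The steepest loss among these 20 was that of Gene_9102, an uncharacterized protein, which stood at 5991, 4085 and 4541 CPM at 25 °C, 717, 809 and 1394 at 32 °C and 56, 231 and 45 at 36 °C, an edgeR log2 fold change of -5.46 ± 0.64 (SE, adjusted p = 1.68e-04) that was -6.60 without SHT replicate 2. Every SHT library lay far below every CK library. Gene_3668 and Gene_3667 match 1 uncharacterized protein and lie next to each other in the numbering. Gene_3668 went from 5874, 4389 and 5409.9 CPM to 451, 1102 and 284 CPM (-3.09, without SHT replicate 2 -3.83) and Gene_3667 changed by -3.16 (-3.82 without that library). In all of these except Gene_15859, SHT replicate 2 kept the most. The other falls of the group were smaller, between -2.79 in Gene_13567 and -1.01 in Gene_1034, besides -4.43 in the pheromone-receptor-like Gene_18486. The call of Gene_1034 was lost without CK replicate 1 (-0.88) or SHT replicate 3 (-0.998).

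The 4 of the 20 that did not pass were hypothetical proteins. Gene_18380 was at 4388, 3190.2 and 3409.8 CPM at 25 °C and 3108, 4806 and 2843 at 36 °C (log2 fold change -0.03), and Gene_4565 at 3988, 3197 and 3318 and 3429, 2701 and 3393 (-0.14). Gene_5016 was at 3044, 3018 and 2565 CPM at 25 °C and 2667, 2493 and 2782 at 36 °C (-0.12) and had been higher at 32 °C (5440.0, 4370.1 and 4973). Gene_22489 stood at -0.81 and passed only without SHT replicate 2 (-1.19).

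The most counted unigenes at 36 °C mixed these remainders with unigenes that rose. The first by mean share was Gene_11143, an uncharacterized protein that took 0.0713, 0.123 and 0.0498% of the counts in CK and 0.382, 0.398 and 0.549% in SHT, and it rose with an edgeR log2 fold change of 2.19 ± 0.34 (SE, adjusted p = 5.69e-04). Gene_9688, a hypothetical protein, rose from 882, 958 and 849 CPM to 5376, 2323 and 4030.3 CPM (2.12 ± 0.30, log2 fold change ± standard error), and Gene_4929 from 345, 429.6 and 302 to 1660.5, 2345 and 2456 (2.59 ± 0.28). Named members of the 20 most counted in SHT were the chaperonin GroL, a cytochrome P450, a copper radical oxidase and a Dyp-type peroxidase. The peroxidase, Gene_13722, belongs to the haem enzymes that decolour dyes and attack lignin-like compounds, and at 2133, 2340.2 and 1609 CPM at 25 °C and 2915, 3442 and 2409 at 36 °C it did not pass (0.53). The cytochrome P450, Gene_5276, rose from 618, 635 and 634 CPM to 1669, 1598 and 2043 CPM, an edgeR log2 fold change of 1.49 ± 0.21 (SE, adjusted p = 2.72e-04).

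The informative descriptions were sorted into 36 classes by words in them. In the classes of protein folding, mitochondria, synthetases and translation factors and amino acid synthesis, more unigenes were higher than lower at 36 °C. The share higher in these classes was 21.25% to 53.8%, against 10.8% over all unigenes. In those of kinases, small GTPases, cytoskeleton, hydrophobins, mating and cytosolic ribosomal proteins, more were lower. Of 9961 unigenes without an informative description, 1060 were higher (10.6%) and 1154 lower (11.6%). They held 80, 78.3 and 79.5% of the counts in CK and 75, 76 and 73.9% in SHT. The plot of classes shows the share of each class that passed beside that of all unigenes, and the median log2 fold change at both temperatures. The classes are described here and no class was tested as a set.

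**Figure D2:**
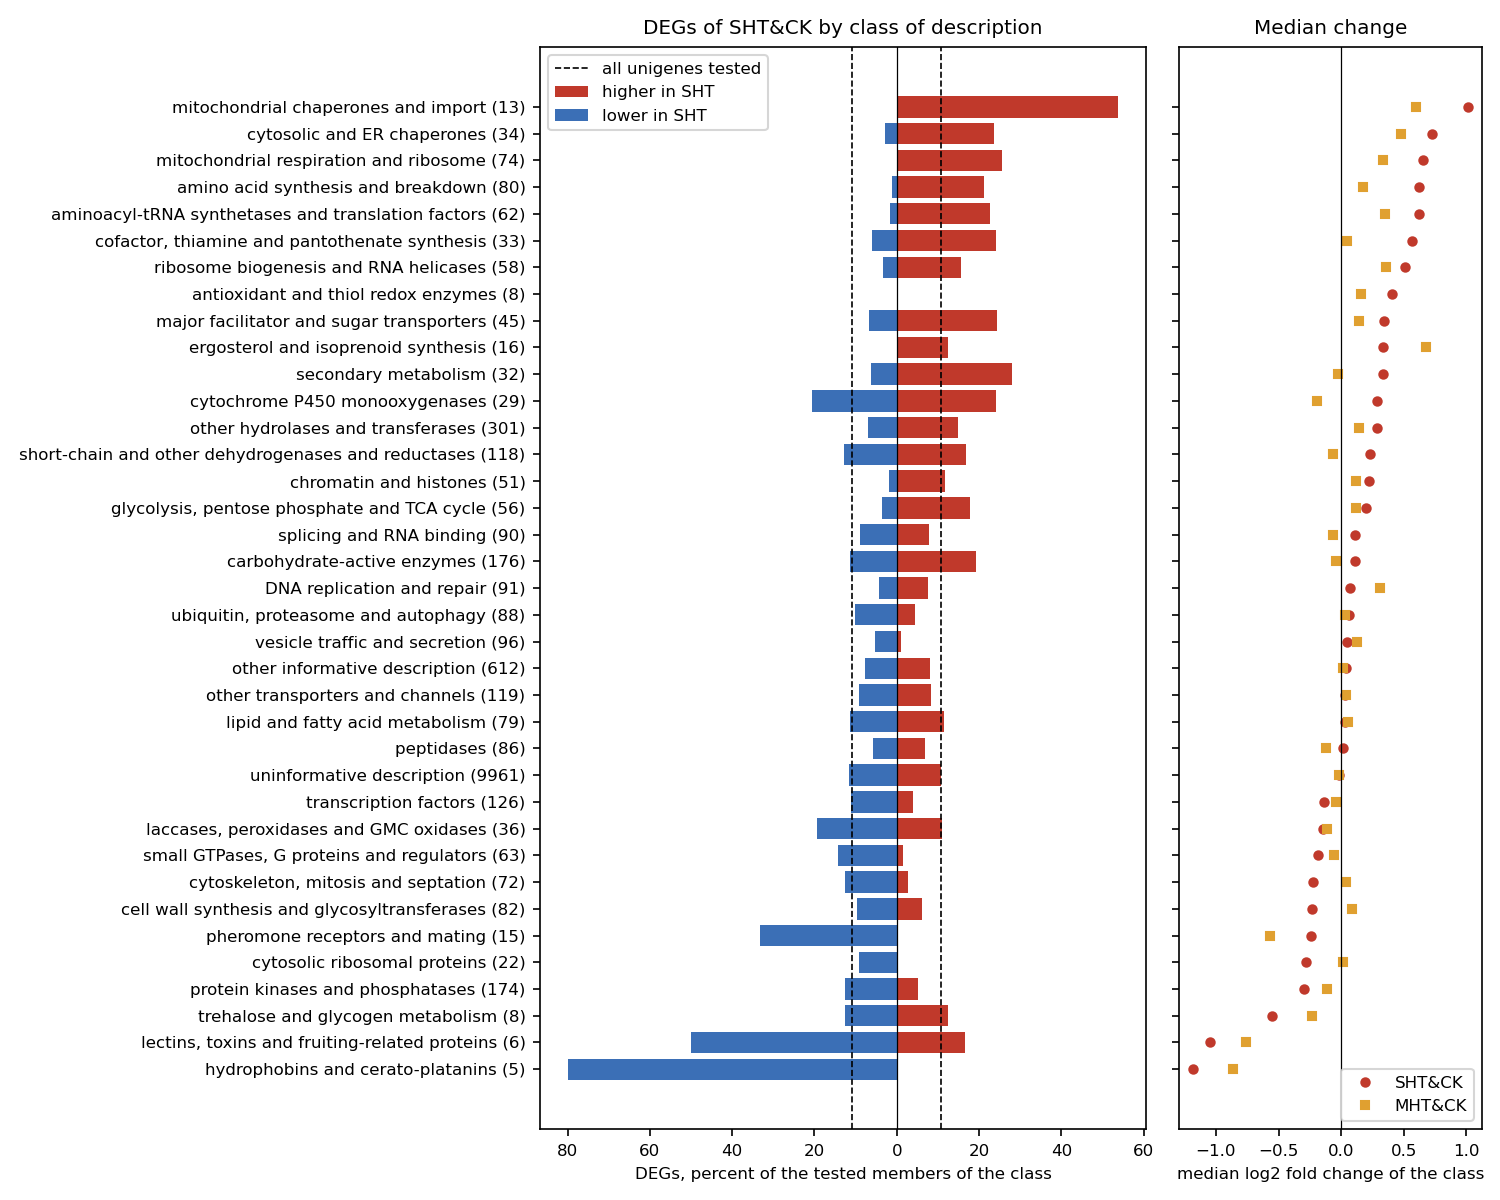
Left, percent of the tested members of each class that were DEGs of SHT&CK, higher to the right and lower to the left, with the number tested in parentheses and dashed lines at 10.9% lower and 10.8% higher, the shares over all unigenes tested. Right, median log2 fold change of the class in SHT&CK (circles) and MHT&CK (squares). Classes of chaperones, mitochondria and translation factors stand at the top, those of hydrophobins, lectins and kinases at the bottom.

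Mitochondrial chaperones and protein import had the largest share of rises among the 36 classes. These proteins pull precursors through the inner membrane and fold them in the matrix. Of 13 tested members 7 rose (53.8%) and 6 did not pass, with a median log2 fold change of 1.01. The class went from 0.142, 0.195 and 0.162% of the counts in CK to 0.442, 0.39 and 0.555% in SHT. The chaperonin GroL carried most of that gain, so the sum does not speak for each member. The chaperonin GroL (HSP60), Gene_19698, the barrel in which matrix proteins fold, was at 642, 965 and 769 CPM at 25 °C, 1391, 1264 and 1922 at 32 °C and 2701, 2224 and 3537 at 36 °C. All SHT libraries lay above all CK libraries, an edgeR log2 fold change of 1.83 ± 0.27 (SE, adjusted p = 3.78e-04). Gene_17118, its 10 kDa heat shock protein partner that caps the barrel, rose from 39, 39 and 31.2 CPM to 98.8, 99.1 and 135 CPM (1.61 ± 0.25). At 32 °C neither was a DEG (0.95 and 0.80).

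The import motor and channels moved with them. Gene_14350, subunit tim22 of the inner membrane translocase, which inserts carrier proteins, rose from 62.7, 65.2 and 59.8 to 184, 207 and 235 CPM (1.73 ± 0.24). Gene_18208, the TIM14 co-chaperone of the motor, rose from 11.1, 10.8 and 11.6 to 33.3, 34.7 and 38.7 CPM (1.67 ± 0.26), and Gene_24937, the chaperone BCS1 that serves respiratory complex assembly, from 15.5, 17.8 and 19.9 to 49.4, 45.1 and 48.5 (1.42 ± 0.21). The remaining rises were near the threshold. TIM44 (Gene_15418, 1.01) was lost without SHT replicate 3 (0.84), and tim23 (Gene_16754, 1.10) without CK replicate 1 (0.98) or SHT replicate 3 (0.97). The import receptor Gene_3322 (0.03), both subunits of the processing peptidase, which cuts off targeting sequences (Gene_7769, -0.26, and Gene_7770, -0.13), and the insertase oxa1 (Gene_9451, 0.04) did not pass.

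Of 34 cytosolic and endoplasmic reticulum chaperones, 8 rose and 1 fell (median 0.73), and their share of the counts went from 0.602, 0.689 and 0.602% to 1.22, 0.932 and 1.36%. HSP70 proteins bind unfolded stretches of other proteins. All 10 unigenes with HSP70 in the description had a log2 fold change above 0 and 3 of them rose. Gene_6270 was at 245, 277 and 221 CPM at 25 °C, 519, 429 and 596 at 32 °C and 967, 496 and 1204 at 36 °C, an edgeR log2 fold change of 1.84 ± 0.29 (SE, adjusted p = 5.97e-04). Its neighbour in the numbering, Gene_6272, changed by 1.21 and lost its call without SHT replicate 3 (0.98). Gene_9154, a lumenal HSP70 of the endoplasmic reticulum, rose from 70.9, 84.1 and 73.1 to 172, 149.6 and 175 CPM (1.12 ± 0.22). The most counted HSP70, Gene_19843, was at 879, 808 and 746 CPM at 25 °C and 1691, 1011 and 1899 at 36 °C and missed the fold threshold (0.92), passing without SHT replicate 2 (1.14).

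The 5 unigenes of HSP90, which finishes the folding of kinases and receptors, had log2 fold changes between -0.12 and 0.77 and did not pass. Gene_19909 was at 492, 473 and 479 CPM at 25 °C and 804, 478 and 868 at 36 °C, where SHT replicate 2 sat within the CK range (0.57, edgeR adjusted p = 0.0609). The type I HSP40 co-chaperone Gene_25310, the most counted of the class, was at 1257, 1194 and 1003 CPM at 25 °C and 1578, 1003 and 2055 at 36 °C and did not pass (0.42). The T-complex protein 1 chaperonin, which folds actin and tubulin, had 5 unigenes between 0.76 and 1.41, of which Gene_24921 rose (1.41 ± 0.24) and Gene_17389 lost its call without CK replicate 1 (1.07 against 0.96). Among prolyl isomerases, which turn proline bonds during folding, Gene_20326 rose from 84.1, 84.7 and 78.8 to 203, 148 and 283 CPM (1.36 ± 0.25) and Gene_14656 by 1.17 ± 0.29. The only chaperone that fell was a protein disulfide-isomerase precursor, Gene_8671, an enzyme of disulfide bonds in secreted proteins, from 477, 462 and 459 to 252, 223 and 215 CPM (-1.02, -0.98 and below the threshold without SHT replicate 3).

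Of 74 unigenes of mitochondrial respiration and the mitochondrial ribosome, 19 rose and 55 did not pass (median 0.65), and 12 of 74 rose without SHT replicate 3. Without CK replicate 1 or SHT replicate 3, 1 was lower. DESeq2 called 19 higher. Gene_18302, iso-1-cytochrome c, which carries electrons to cytochrome c oxidase, was at 0.879, 1.91 and 0.873 CPM at 25 °C, 3.13, 3.43 and 7.03 at 32 °C and 8.74, 7.01 and 15.7 at 36 °C, an edgeR log2 fold change of 3.04 ± 0.49 (SE, adjusted p = 7.25e-04). The levels are low. Cytochrome c1, part of complex III, rose in Gene_16755 from 82.6, 118 and 96.5 to 240.5, 222 and 293 CPM (1.34 ± 0.26), and subunit 6 of cytochrome c oxidase in Gene_23978 by 1.07 (without CK replicate 1 0.99, without SHT replicate 3 0.88, both below the threshold). The alpha subunit of the F1 sector of ATP synthase, Gene_12276, the most counted of the class, was at 733, 987 and 776 CPM at 25 °C and 996, 746 and 1259.6 at 36 °C and did not pass (0.27).

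Mitochondrial carriers, which move metabolites across the inner membrane, had 11 tested unigenes, of which 5 rose. Gene_4064 rose from 8.5, 7.84 and 6.77 to 30.7, 21.2 and 30.5 CPM (1.84 ± 0.31) and the GTP/GDP carrier Gene_5254 from 33.4, 47.9 and 34.7 to 101, 85.4 and 141 (1.49 ± 0.29). Gene_4760, the most counted carrier named here, was at 359, 639 and 427 CPM at 25 °C and 994, 831 and 1465 at 36 °C (1.21), and its call was lost without SHT replicate 3 (0.93). All 7 unigenes described as mitochondrial ribosomal proteins had a log2 fold change above 0, between 0.25 and 1.30, and 3 rose. Among them Gene_23494 (mrpl1) rose from 21.4, 29.2 and 21.8 to 55.1, 51 and 72.9 CPM (1.30 ± 0.28). Gene_17510, a protein of crista junctions, which shape the inner membrane, rose by 1.23 ± 0.25, and Gene_7687, an intermediate peptidase of the matrix, by 1.49 ± 0.31.

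Of 62 aminoacyl-tRNA synthetases and translation factors, 14 rose and 1 fell (median 0.62). Without SHT replicate 3, 9 rose. Synthetases load amino acids onto tRNA, and 31 of their 34 unigenes had a log2 fold change above 0, with 7 DEGs, all higher. Gene_4599, an aspartate-tRNA ligase, went from 23.4, 36.2 and 30.3 CPM at 25 °C to 55.8, 59.5 and 71.3 at 32 °C and 87.1, 83.2 and 113 at 36 °C, an edgeR log2 fold change of 1.65 ± 0.21 (SE, adjusted p = 1.85e-04), and its neighbour Gene_4600 by 1.54 ± 0.28. The mitochondrial elongation factors rose together, EF-Ts (Gene_7768) from 22.8, 29 and 27.5 to 92.2, 76.7 and 115 CPM (1.83 ± 0.27) and EF-Tu (Gene_4575) from 71.2, 120.1 and 112 to 245, 231 and 358 (1.45 ± 0.25). The 8 unigenes of initiation factor 3 lay between 0.10 and 1.32, with subunits b (Gene_4525, 1.14 ± 0.24) and c (Gene_6853, 1.32 ± 0.28) higher. Initiation factor eIF4A, a helicase that unwinds messenger leaders and the most counted of the class, stood at 1211, 1341 and 1247 CPM at 25 °C and 1131, 1176 and 1451 at 36 °C (Gene_20030, -0.02). The unigene that fell was Gene_14040, described as a translational activator of GCN4, a factor that in yeast answers amino acid starvation, from 19.9, 22.9 and 25.3 to 11.8, 4.36 and 9.44 CPM (-1.40 ± 0.36).

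Of 22 cytosolic ribosomal proteins 2 fell (9.09%, against 10.9% over all unigenes) and 20 did not pass (median -0.28). Without CK replicate 1, CK replicate 2, SHT replicate 1 or SHT replicate 2, 1 rose. Ribosomal protein P0 of the stalk, Gene_17658, was at 1142, 1249 and 1114 CPM at 25 °C, 888, 857 and 877 at 32 °C and 504, 632 and 583 at 36 °C, an edgeR log2 fold change of -1.03 ± 0.18 (SE, adjusted p = 0.00127). The call was lost without CK replicate 2 (-0.98) or SHT replicate 1 (-0.96), so that 1 of 22 was lower in those cases. Ribosome biogenesis and RNA helicases had 9 of 58 higher and 2 lower (median 0.51). Gene_22003, an Fe-S cluster protein of ribosome recycling and assembly, rose from 50.7, 55.7 and 47.2 to 156, 138 and 198 CPM (1.68 ± 0.19), and the processome proteins Gene_4325 (1.45 ± 0.22) and Gene_488 (1.40 ± 0.27) also rose. A helicase of the DEAH-box type, Gene_17108, fell (-1.87 ± 0.24). It is numbered beside Gene_17109 and Gene_17110, helicases sorted with splicing, and whether they are pieces of 1 gene was not tested.

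Of 80 unigenes of amino acid synthesis and breakdown, 17 rose and 1 fell (median 0.62), and 11 rose without SHT replicate 3. None fell without CK replicate 1, CK replicate 2 or SHT replicate 2, and 2 fell without CK replicate 3. Their share of the counts went from 0.416, 0.566 and 0.448% in CK to 0.924, 0.708 and 1.07% in SHT. Gene_9137, 3-deoxy-7-phosphoheptulonate synthase, the entry of the aromatic pathway, was at 20.8, 21 and 18.8 CPM at 25 °C and 113, 42.4 and 159 at 36 °C, an edgeR log2 fold change of 2.38 ± 0.43 (SE, adjusted p = 0.00176). SHT replicate 2 was the lowest of its group and still above CK. Histidine synthesis rose at HisHF (Gene_4773, from 58, 83.9 and 69.2 to 248, 247 and 351 CPM, 2.001 ± 0.24) and at ATP phosphoribosyltransferase, its first enzyme (Gene_8809, 1.499 ± 0.24). Leucine synthesis rose at 2-isopropylmalate synthase, Gene_24786 from 48.6, 60 and 47.2 to 197, 109.7 and 247 CPM (1.83 ± 0.30) and Gene_24785 by 1.48 ± 0.26.

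Further along the leucine pathway, 3-isopropylmalate dehydrogenase (Gene_1561) changed by 1.48 and lost its call without CK replicate 1 (1.19), CK replicate 3 (1.49) or SHT replicate 3 (1.07). Homoisocitrate dehydrogenase of lysine synthesis (Gene_915) rose from 8.5, 15.7 and 11.8 to 41.4, 29.6 and 52.6 CPM (1.76 ± 0.31). Ornithine carbamoyltransferase, a step to arginine, rose in Gene_17070 (2.22 ± 0.33), while Gene_17076 (1.11) lost its call without SHT replicate 3 (0.97) and Gene_17153 (1.15) without CK replicate 1 (0.996). Glutamine synthetase, here described as glutamate-ammonia ligase (Gene_1350), was already raised at 32 °C, at 467, 487 and 481 CPM at 25 °C, 984, 829.5 and 1376 at 32 °C and 1051, 847 and 1139 at 36 °C (1.08, 0.98 without SHT replicate 3). A glutamine amidotransferase, Gene_14739, the most counted of the class, did not pass (951, 859 and 888 and 954, 791 and 927 CPM, -0.01).

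Cofactor synthesis had 8 of 33 higher and 2 lower (median 0.57). Gene_3689, a protein of thiamine metabolism, the source of a cofactor of pyruvate and transketolase reactions, was at 42.5, 27.3 and 27.7 CPM at 25 °C and 155, 208 and 202 at 36 °C, an edgeR log2 fold change of 2.54 ± 0.41 (SE, adjusted p = 9.09e-04). Gene_14199, ketopantoate hydroxymethyltransferase of pantothenate synthesis, rose at both temperatures to a like level (10.8, 12.5 and 6.55 CPM at 25 °C, 39.1, 36.6 and 65.9 at 32 °C and 42.9, 39.6 and 39.8 at 36 °C). A lipoate protein ligase, Gene_4048, rose by 1.59 ± 0.25. Ribosylnicotinamide kinase, Gene_11510, an enzyme of NAD salvage, fell from 126, 94.3 and 108 to 24.7, 35.4 and 22.6 CPM (-1.99 ± 0.24).

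**Figure D3:**
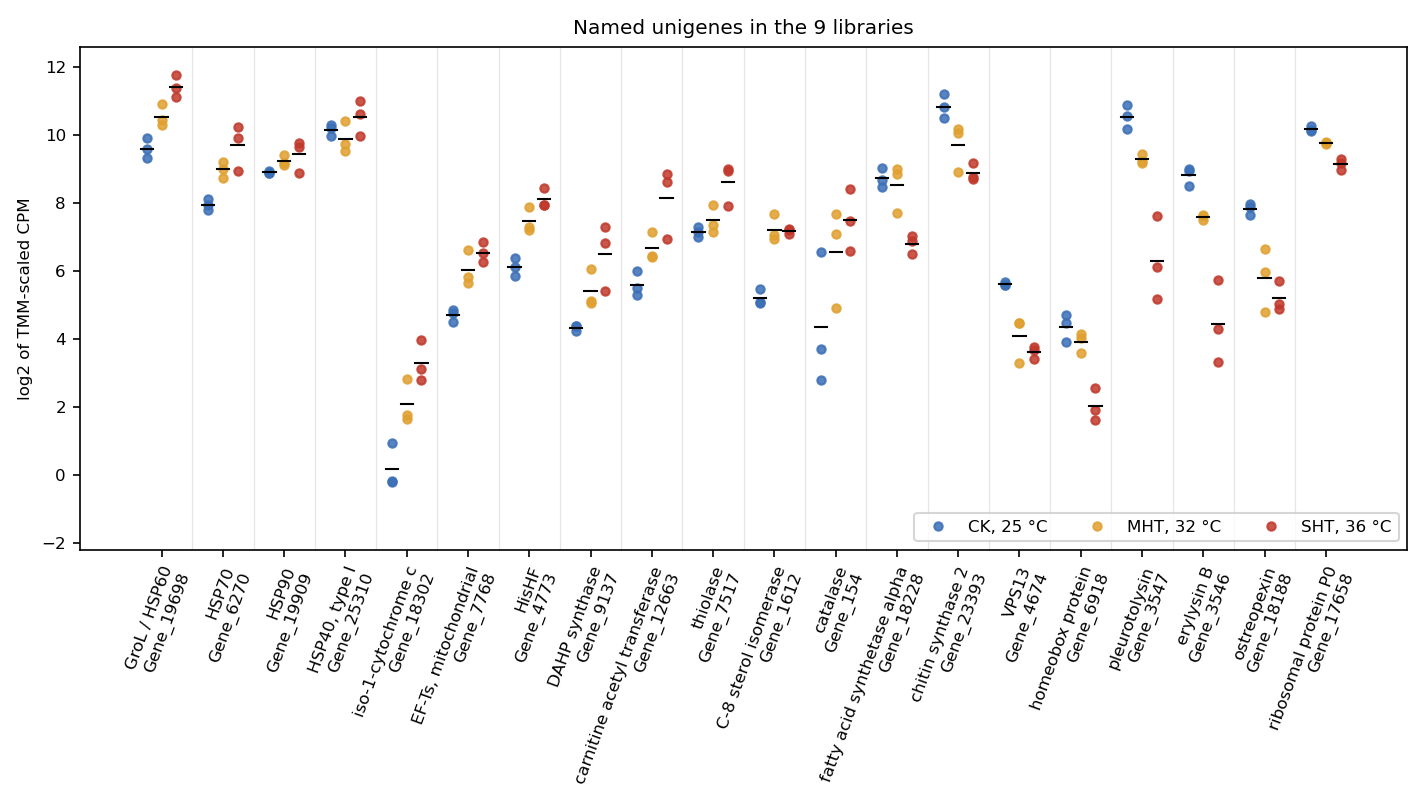
Log2 of TMM-scaled CPM of 20 unigenes named in the text, 1 point per library and a bar at the mean of each group's log2 values, with CK, MHT and SHT from left to right at each unigene. The first 12 hold chaperones, mitochondrial and metabolic enzymes with higher or scattered SHT values, the last 8 hold unigenes with lower SHT values.

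In central carbon metabolism 10 of 56 rose and 2 fell (median 0.20). Gene_315, fructose-bisphosphate aldolase, which splits the hexose of glycolysis, was at 147, 268 and 177 CPM at 25 °C, 118, 145 and 208 at 32 °C and 604, 331 and 906 at 36 °C, an edgeR log2 fold change of 1.64 ± 0.36 (SE, adjusted p = 0.00423), with 1.97 in SHT&MHT (edgeR adjusted p = 0.00811). The aldehyde dehydrogenases Gene_15081 and Gene_15082 behaved alike, Gene_15081 at 193, 332 and 314 CPM at 25 °C, 187, 239 and 299.7 at 32 °C and 775, 521 and 1039.9 at 36 °C (1.48 ± 0.29) and Gene_15082 at 1.18, whose call was lost without SHT replicate 3 (0.93). The E1 component of 2-oxoglutarate dehydrogenase, a step of the citric acid cycle, rose in Gene_21556 (1.35 ± 0.24) and in its neighbour Gene_21557 (1.53 ± 0.37). Glucose-6-phosphate dehydrogenase (Gene_686, 1.04), the entry of the pentose phosphate pathway, was lost without CK replicate 1 (0.84) or SHT replicate 3 (0.83). Pyruvate kinase (Gene_7417, -1.01) and phosphoenolpyruvate carboxykinase (Gene_14877, -1.03) were just past the threshold downward, the former lost without CK replicate 2 (-0.84), SHT replicate 1 (-0.92) or SHT replicate 3 (-0.94), the latter without CK replicate 1 (-0.88). Without SHT replicate 2, 6 of the class fell, and 1 fell without CK replicate 2, SHT replicate 1 or SHT replicate 3.

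In lipid metabolism 9 of 79 were higher and 9 lower (median 0.03). This was 11.4% each way, near the 10.8% higher and 10.9% lower over all unigenes. Without CK replicate 2, 14 were higher. The members that fell included the fatty acid synthase and the members that rose included enzymes of fatty acid breakdown. Fatty acid synthase is a large complex that builds long chains from malonyl groups, and 5 of the 6 unigenes whose description names it or its synthase domain fell. Gene_18228, its alpha subunit, was at 359, 411 and 529 CPM at 25 °C, 518, 463 and 209 at 32 °C and 131, 91.7 and 119 at 36 °C, an edgeR log2 fold change of -1.93 ± 0.31 (SE, adjusted p = 6.33e-04). Gene_18227 (-1.96 ± 0.33) and Gene_18230 (-1.60 ± 0.21) carry the same name, and Gene_18225 (-1.83 ± 0.37) and Gene_18226 (-2.02 ± 0.39) are described as 3-oxoacyl synthases and were sorted with other transferases. In SHT&MHT the log2 fold change of Gene_18228 was -1.80 (edgeR adjusted p = 0.00525), and MHT replicate 3 was the lowest library of its group. The unigenes lie in a row and may be pieces of fewer transcripts, so their count does not stand for separate genes.

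Carnitine acetyltransferases, which pass acetyl groups between compartments, all rose. Gene_12663 was at 39, 63.8 and 45.2 CPM at 25 °C, 87.1, 85.9 and 142 at 32 °C and 397, 123 and 463 at 36 °C, an edgeR log2 fold change of 2.73 ± 0.44 (SE, adjusted p = 9.13e-04), with SHT replicate 2 far below both others. Gene_26721 (2.33 ± 0.48) and Gene_12665 (2.16 ± 0.53) had the same order of the SHT libraries. Thiolase, the last step of beta-oxidation, rose in Gene_7517 from 158, 129.6 and 141 to 514, 243 and 499 CPM (1.55 ± 0.29) and in Gene_7518 (1.18 ± 0.26), and an enoyl-CoA hydratase, Gene_1521, rose by 1.42 ± 0.23. An acyl-CoA dehydrogenase, Gene_17547, was just past the threshold (1.003) and was lost without CK replicate 1 (0.92), MHT replicate 2 (0.99) or SHT replicate 3 (0.85), and under other scalings.

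Ergosterol is the sterol of fungal membranes. Of 16 tested unigenes of its synthesis 2 rose (12.5%, against 10.8% over all unigenes) and 14 did not pass. The median was 0.33 at 36 °C against 0.68 at 32 °C. Gene_1612, C-8 sterol isomerase, was at 33.1, 44.5 and 34.3 CPM at 25 °C, 133, 124 and 204 at 32 °C and 136, 151 and 148 at 36 °C, an edgeR log2 fold change of 1.96 ± 0.22 (SE, adjusted p = 8.43e-05), and Gene_4707, isopentenyl-diphosphate isomerase, at 80.3, 106 and 83.2 CPM at 25 °C, 307, 254 and 508 at 32 °C and 298, 398 and 371 at 36 °C (1.99 ± 0.26). Both were as high at 32 °C. Others were intermediate at 36 °C, such as the sterol C-methyltransferase Gene_22349 (170.2, 205 and 180.4 CPM at 25 °C, 319.8, 286 and 556 at 32 °C and 271, 296 and 317 at 36 °C), a DEG at 32 °C (1.06) that missed the fold threshold at 36 °C (0.67). Gene_4106, described as a C-22 sterol desaturase, was lower in SHT than in MHT (-1.20, edgeR adjusted p = 0.00304) and did not pass against CK (-0.60).

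No unigene passed in the class of antioxidant and thiol redox enzymes. Peroxidases were sorted with the laccases, among them Gene_7345, which rose (3.69). The study lists it as a mitochondrial cytochrome-c peroxidase. Of 8 tested unigenes 4 had an unadjusted p under 0.05 upward and 1 downward, and DESeq2 called 0 higher and 0 lower. Glutathione synthase, Gene_8555, came closest at 15.8, 15.3 and 11.6 CPM at 25 °C and 27.8, 25.6 and 31.3 at 36 °C (0.99), and it passed without CK replicate 1 (1.06), CK replicate 2 (1.05) or SHT replicate 2 (1.05). Catalase splits hydrogen peroxide. The more counted catalase, Gene_6329, was at 1227, 1323 and 1486 CPM at 25 °C and 723, 1049.8 and 871 at 36 °C (-0.61), and Gene_154 ranged from 93.7, 13.1 and 6.99 in CK to 96, 340.2 and 179 in SHT (2.46), passing only without CK replicate 1 (4.36). Thioredoxin reductases Gene_22528 (0.42) and Gene_22529 (0.53) did not pass.

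Of 8 unigenes of trehalose, a sugar that protects proteins and membranes, and of glycogen, 1 was higher and 1 lower (25.0% called, against 21.7% over all unigenes), with a median of -0.55, and at an unadjusted p under 0.05 there were 2 higher and 4 lower. None was higher without SHT replicate 2, none was lower without CK replicate 3 or SHT replicate 3, and 2 were lower without CK replicate 1 or SHT replicate 2. Trehalose-6-phosphate synthase, Gene_17660, was at 43.4, 47.7 and 39.5 CPM at 25 °C, 67.6, 75.6 and 101 at 32 °C and 76.8, 101 and 96.8 at 36 °C (1.07), and its call was lost without SHT replicate 2 (0.99). Its neighbour Gene_17659 stood at 0.79 and did not pass. Trehalose phosphorylase, which takes trehalose apart, was at 53.6, 55.1 and 59.8 CPM at 25 °C and 21.9, 40.5 and 22.6 at 36 °C in Gene_19920 (-0.99) and passed without CK replicate 1 (-1.02), CK replicate 2 (-1.004) or SHT replicate 2 (-1.34). Glycogen phosphorylase, Gene_9913, changed by -1.24 and was lost without CK replicate 2 (-0.99), CK replicate 3 (-1.06) or SHT replicate 3 (-1.17).

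Carbohydrate-active enzymes cut plant polysaccharides or remodel the fungal wall. Of 176 tested, 34 rose (19.3%, against 10.8% over all unigenes) and 20 fell (11.4%, against 10.9%), with a median of 0.11. Among 23 unigenes described as glycoside hydrolase family 7 or exoglucanase, the enzymes that run along cellulose chains, 7 rose and 2 fell. Gene_714 of that family was at 0.879, 1.06 and 1.09 CPM at 25 °C, 1.65, 3.07 and 4.82 at 32 °C and 10.3, 7.58 and 10.2 at 36 °C, an edgeR log2 fold change of 3.17 ± 0.43 (SE, adjusted p = 2.38e-04). The level was low. The most counted member fell. Gene_8550 of glycoside hydrolase family 20, hexosaminidases that finish the breakdown of chitin, went from 741, 734 and 876 CPM at 25 °C to 485, 528 and 537 at 32 °C and 298, 366 and 293 at 36 °C, an edgeR log2 fold change of -1.30 ± 0.18 (SE, adjusted p = 3.14e-04).

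Among 36 laccases, peroxidases and related oxidases, 4 rose (11.1%, against 10.8% over all unigenes) and 7 fell (19.4%, against 10.9%), with a median of -0.14. Without CK replicate 3 or without SHT replicate 1, 2 rose. The haem peroxidase Gene_7345 was at 2.93, 17.2 and 6.11 CPM at 25 °C and 107, 67.2 and 174 at 36 °C, with CK replicate 2 above its group (3.69 ± 0.62, and 4.64 without CK replicate 2). Another haem peroxidase, Gene_26672, fell from 334, 239 and 322 to 85.6, 103.6 and 71.3 CPM (-1.78 ± 0.20). A laccase, Gene_26061, a multicopper oxidase of phenols, was at 7.62, 57 and 12.9 CPM at 25 °C and 1.99, 5.49 and 1.67 at 36 °C. Its log2 fold change of -3.11 shrank to -1.78 when CK replicate 2 was left out and grew to -3.82 when SHT replicate 2 was, and the call was lost when the MHT libraries were left out of the model (-3.10). Gene_422, the copper radical oxidase among the 20 most counted in SHT, was highest at 32 °C (199, 884 and 274 CPM at 25 °C, 5400.4, 9060.0 and 5524 at 32 °C and 2291, 2701 and 1086 at 36 °C) and rose in SHT&CK by 2.16 ± 0.54, or 3.10 without CK replicate 2.

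Cytochrome P450 enzymes, which oxidise small molecules, moved both ways, 7 of 29 higher and 6 lower (median 0.29). Gene_2329 fell from 203, 119 and 141 CPM at 25 °C to 67, 71.4 and 86.8 at 32 °C and 18.3, 28 and 14.1 at 36 °C, an edgeR log2 fold change of -2.94 ± 0.28 (SE, adjusted p = 3.19e-05). Close to it in the numbering, Gene_2327, an acetoin reductase family protein, fell from 329, 252 and 323 to 37.9, 53 and 31.3 CPM (-2.89 ± 0.26). Of 118 short-chain and other dehydrogenases 20 rose and 15 fell (median 0.23). Inosine-5'-monophosphate dehydrogenase, Gene_9015, which commits purines to guanine nucleotides, was the most counted of them and rose from 614, 597 and 603 to 1523, 1231 and 1655 CPM (1.28 ± 0.21). Gene_9785, an FAD-dependent oxidoreductase, fell from 1012, 569.9 and 669 to 107, 107 and 92.6 CPM (-2.88 ± 0.26) and Gene_15893, an NAD(P)-binding protein, from 85.5, 30.3 and 61.4 to 3.99, 9.47 and 4.44 (-3.31 ± 0.42). In the broad class of other hydrolases and transferases, 45 of 301 rose and 21 fell (median 0.29). The alpha/beta-hydrolase Gene_5791 rose from 4.98, 2.97 and 3.71 to 28.8, 20.1 and 42 CPM (2.98 ± 0.39), and Gene_1181 from 5.27, 5.51 and 3.49 to 49.5, 12.5 and 60.4 (3.10 ± 0.50), with SHT replicate 2 nearest to CK.

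Secondary metabolism, the making of compounds outside growth, had 9 of 32 higher and 2 lower (median 0.33), and 5 higher without CK replicate 3 or without SHT replicate 3, and 1 lower without SHT replicate 2. The rises were led by unigenes of a non-ribosomal peptide synthetase-like protein. Gene_2661 was at 67.4, 394 and 115 CPM at 25 °C, 272, 366 and 567 at 32 °C and 1312, 531 and 1749 at 36 °C (2.64 ± 0.66, edgeR adjusted p = 0.011), and 3.71 without CK replicate 2. CK replicate 2 lay within the MHT values, and SHT replicate 2 lay well below the other SHT libraries. Gene_2663 had the same pattern (3.10, 4.24 without CK replicate 2).

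Of 45 transporters of the major facilitator and sugar families, which take up sugars and export metabolites, 11 rose and 3 fell (median 0.34). Gene_26842 rose at both temperatures (21.4, 82.6 and 20.5 CPM at 25 °C, 116, 157 and 381 at 32 °C and 213, 159 and 289 at 36 °C, 2.40 in SHT&CK and 3.39 without CK replicate 2). The most counted, the monosaccharide transporter Gene_15438, did not pass (0.48). Of 119 other transporters and channels 10 rose (8.40%, against 10.8% over all unigenes) and 11 fell (9.24%, against 10.9%), with a median of 0.03. A GABA permease, Gene_9499, rose from 13.8, 22.5 and 18.6 to 64.6, 80.5 and 86.8 CPM (2.07 ± 0.24) and a general substrate transporter, Gene_15328, from 65.6, 55.7 and 55 to 209, 156 and 208 (1.70 ± 0.20). Gene_20508, which carries nucleotide sugars, fell from 216, 145 and 176 to 59.8, 57.2 and 48.9 CPM (-1.69 ± 0.25). The most counted, a copper P-type ATPase (Gene_26684), stood at -0.98 and passed without CK replicate 2 (-1.07), SHT replicate 1 (-1.07) or SHT replicate 3 (-1.02).

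Of 82 unigenes of cell wall synthesis and glycosyltransferases 5 rose (6.10%, against 10.8% over all unigenes) and 8 fell (9.76%, against 10.9%), with a median of -0.23. Fewer fell without CK replicate 1 (5), CK replicate 3 (5), SHT replicate 2 (4) or SHT replicate 3 (4), and 3 rose without SHT replicate 2. Chitin synthases polymerise the main fibre of the wall, and of 12 unigenes 2 fell and 1 rose, with a median of -0.74. Gene_23393, chitin synthase 2, was at 2361, 1460.0 and 1809 CPM at 25 °C, 1079, 1168 and 481 at 32 °C and 577, 416 and 435 at 36 °C, an edgeR log2 fold change of -1.98 ± 0.33 (SE, adjusted p = 7.91e-04), and its neighbour Gene_23392 fell from 1181, 800.1 and 893 to 363, 488 and 338 CPM (-1.27 ± 0.22). Gene_15051, another class 2 chitin synthase, was higher at both temperatures (22.8, 57.6 and 29 CPM at 25 °C, 151, 119.6 and 68.5 at 32 °C and 114, 78.8 and 63.5 at 36 °C, 1.22) and lost its call without CK replicate 1 (0.98), CK replicate 3 (1.08) or SHT replicate 1 (0.94).

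All 5 unigenes of the glucan synthase, which makes the beta-glucan of the wall, had a log2 fold change below 0, between -1.20 and -0.24. Of these only Gene_12138 passed (-1.20), and it was lost without CK replicate 3 (-1.16), SHT replicate 2 (-1.01) or SHT replicate 3 (-1.22). UDP-N-acetylglucosamine pyrophosphorylase, Gene_7790, which makes the building block of chitin, was at 236, 227 and 204 CPM at 25 °C, 752, 482 and 867 at 32 °C and 509, 667 and 345 at 36 °C (1.19, and 0.93 without SHT replicate 2, below the threshold). A family 2 glycosyltransferase, Gene_6763, with the most counts of the class over the 9 libraries, went from 1866, 1319 and 1549 to 885, 615 and 721 CPM (-1.09) and was lost without CK replicate 1 (-0.96), SHT replicate 2 (-0.98) or SHT replicate 3, where its adjusted p ended the call (-1.08).

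Hydrophobins make aerial hyphae water-repellent, and cerato-platanins are small secreted wall proteins. Together they went from 0.222, 0.17 and 0.2% of the counts in CK to 0.0296, 0.049 and 0.0213% in SHT, and 4 of 5 unigenes fell. The cerato-platanin Gene_5083 (-2.93) and hydrophobin 3, Gene_22549 (-2.77), carried nearly all of that share and kept their calls without any 1 library. Gene_6238 (-1.18) and Gene_8573 (-1.06), both low, lost theirs when CK replicate 2 or 3 or any SHT library was left out, so that 2 of 5 then fell. For Gene_6238 those values were -0.58, -1.26, -1.26, -1.07 and -1.26, and its adjusted p also missed without MHT replicate 1 (-1.18) or 3 (-1.19). For Gene_8573 they were -0.75, -1.19, -1.13, -0.89 and -1.22. A class I hydrophobin, Gene_13865, near 1 CPM in most libraries, did not pass (0.31). A hydrophobic surface binding protein outside this class, Gene_10818, was at 734, 221 and 321 CPM at 25 °C and 77.9, 64 and 47.4 at 36 °C (-2.75 ± 0.58, and -2.11 without CK replicate 1).

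Of 6 tested unigenes of pore-forming proteins, lectins and fruiting-related proteins 3 fell and 1 rose (median -1.05), and 3 had a log2 fold change above 0. The falls were in pore-forming proteins and ostreopexin, and 1 of 2 lectins rose. Gene_3547, described as the membrane pore pleurotolysin, a pore-forming toxin of oyster mushrooms, was at 1905, 1173 and 1507 CPM at 25 °C, 583, 601 and 703 at 32 °C and 69, 195 and 36.3 at 36 °C, an edgeR log2 fold change of -3.93 ± 0.52 (SE, adjusted p = 3.11e-04) that was -4.86 without SHT replicate 2. Its neighbour Gene_3546, erylysin B, the partner in the pore, was at 514, 367 and 491 CPM at 25 °C and 19.6, 53.4 and 10 at 36 °C (-4.05 ± 0.49, -4.94 without SHT replicate 2). In both, every SHT library lay under every MHT library. Ostreopexin, Gene_18188, fell from 252, 201 and 238 to 29.6, 52.9 and 32.6 CPM (-2.59 ± 0.40) and stood at 27.7, 101 and 62.5 CPM at 32 °C. The fruit body lectin Gene_26920 rose from 9.08, 14.2 and 12.4 to 22.2, 47.9 and 28.7 CPM (1.45 ± 0.32). This list holds the markers of fruiting tissue, and its summed share of the counts was 0.236, 0.169 and 0.21% in CK and 0.0217, 0.0442 and 0.0174% in SHT. Gene_3547, Gene_3546 and ostreopexin carried most of that sum, while the fruit body lectin rose, so the sum does not speak for each marker.

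Receptors of the STE3 type sense mating pheromones. Of 15 unigenes of pheromone reception and mating 5 fell, all of them STE3-like, and 10 did not pass, while 1 was higher without SHT replicate 3. Gene_18485, numbered beside the most counted member, fell from 379, 271 and 373 CPM at 25 °C to 72.6, 82.2 and 97.6 at 32 °C and 48, 79.2 and 54.4 at 36 °C, an edgeR log2 fold change of -2.50 ± 0.23 (SE, adjusted p = 2.89e-05). Gene_10118 fell from 17.9, 15.5 and 15.1 to 5.06, 5.49 and 4.44 CPM (-1.68 ± 0.26). The fall was in place at 32 °C, where 4 of the 5 were lower, and Gene_18486 went on from 719, 721 and 398 CPM in MHT to 196, 226 and 206 CPM in SHT (-1.55 in SHT&MHT, edgeR adjusted p = 0.00759). The 4 unigenes of the transcription factor ste12, which acts downstream of such receptors in yeasts, did not pass.

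Of 174 protein kinases and phosphatases 22 fell (12.64%, against 10.9% over all unigenes) and 9 rose (5.17%, against 10.8%), with a median of -0.30. These shares were not tested against those of all unigenes. The kinase Gene_17507 went from 1164, 821 and 1011 CPM at 25 °C to 346, 385 and 222 at 32 °C and 214, 190.4 and 151 at 36 °C, an edgeR log2 fold change of -2.43 ± 0.25 (SE, adjusted p = 5.46e-05). Gene_20054, described as an endonuclease/exonuclease/phosphatase, fell from 561, 361 and 478 to 81, 133 and 48.7 CPM (-2.41 ± 0.33). The guanosine-diphosphatase Gene_3867, the most counted, did not pass (-0.05). Gene_20054 and Gene_3867 were placed here by words in their descriptions, which name no protein kinase or protein phosphatase.

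Of 63 small GTPases, G proteins and regulators 9 fell (14.3%, against 10.9% over all unigenes) and 1 rose (median -0.19). Without CK replicate 3 or without SHT replicate 2, 5 fell. None rose without CK replicate 1, and 2 rose without CK replicate 3. The alpha-2 subunit of a G protein, Gene_11731, which relays receptor signals, fell from 89.9, 82.4 and 101 to 36.2, 43.8 and 35.4 CPM (-1.24 ± 0.18). The exchange factors Gene_3351 (ras GEF, -1.27 ± 0.28) and Gene_785 (for ADP-ribosylation factor, -1.38 ± 0.35) fell as well. Gene_1628, a Ras GTPase activating protein, changed by -1.43 and was lost without CK replicate 3 (-1.37) or SHT replicate 3 (-1.48). The G protein beta subunit Gene_23502, the most counted of the class, did not pass, at 458, 519.7 and 455 CPM at 25 °C and 454, 432 and 493 at 36 °C.

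Of 72 unigenes of cytoskeleton, mitosis and septation 9 fell (12.5%, against 10.9% over all unigenes) and 2 rose (median -0.23). Without CK replicate 3, 5 fell. The kinesin kip2, Gene_2738, a motor on microtubules, was at 19.9, 14.6 and 20.5 CPM at 25 °C, 20.6, 15.9 and 19.9 at 32 °C and 7.21, 9.28 and 5 at 36 °C, an edgeR log2 fold change of -1.35 ± 0.26 (SE, adjusted p = 0.00203). Gene_25128, described as a cell division cycle protein, fell from 43.1, 41.9 and 59.8 to 18.4, 9.47 and 17.6 CPM (-1.67 ± 0.39). It was placed here by its description, and the study lists it as a membrane-bound guanine nucleotide exchange factor, a regulator of GTPases. A dynein heavy chain, Gene_4034, stood at -1.42 and was lost without CK replicate 3 (-1.35) or SHT replicate 3 (-1.38). Septin AspB, Gene_7398, the most counted of the class, did not pass (0.14).

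Among 96 unigenes of vesicle traffic and secretion 5 fell (5.21%, against 10.9% over all unigenes) and 1 rose (1.04%, against 10.8%), with a median of 0.04. Without any 1 of CK replicates 1, 2 and 3 or SHT replicates 1 and 3, 2 rose. The falls were mostly 4 adjacent unigenes, Gene_4674 to Gene_4677, that all match the lipid transfer protein VPS13 and may be pieces of 1 long transcript. Gene_4674 was at 51.3, 47.9 and 48 CPM at 25 °C, 22.3, 22 and 9.84 at 32 °C and 13.6, 12.9 and 10.6 at 36 °C, an edgeR log2 fold change of -1.98 ± 0.27 (SE, adjusted p = 2.80e-04), and the other three lay between -2.25 and -1.94.

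Of 126 transcription factors and related proteins 14 fell (11.1%, against 10.9% over all unigenes) and 5 rose (3.97%, against 10.8%), with a median of -0.14. Without CK replicate 1 or SHT replicate 3, 3 rose. The homeobox protein Gene_6918 was at 26.4, 15 and 22.1 CPM at 25 °C, 16.3, 17.9 and 12.1 at 32 °C and 3.07, 3.79 and 5.92 at 36 °C, an edgeR log2 fold change of -2.31 ± 0.31 (SE, adjusted p = 2.37e-04), and was lower in SHT than in MHT (-1.86, edgeR adjusted p = 0.00504). Gene_7013, another homeobox protein, fell from 141, 136 and 169 to 56, 51.5 and 47.9 CPM (-1.52 ± 0.26). The MADS box factors Gene_3921 (-1.11 ± 0.19) and Gene_3922 (-1.21 ± 0.20) and the zinc cluster factor Gene_12212 (-1.62 ± 0.34) fell as well. Of the 5 that rose, 3 were subunits of RNA polymerase that the words placed here, among them rpc10, Gene_1028, from 12.9, 14.8 and 10.5 to 32.4, 35 and 52.4 CPM (1.65 ± 0.35). The first subunit of RNA polymerase II, Gene_25703, did not pass (-0.60).

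Chromatin and histones had 6 of 51 higher (11.8%, against 10.8% over all unigenes) and 1 lower (1.96%, against 10.9%), with a median of 0.22. Without SHT replicate 1, 3 were lower, and 2 were lower without CK replicate 1, CK replicate 2 or MHT replicate 2. The rises were led by a SET domain protein, Gene_6497 (4.69, 5.51 and 7.64 to 21.5, 27.1 and 18.1 CPM, 1.88 ± 0.25). DNA replication and repair had 7 of 91 higher (7.69%) and 4 lower (4.40%), with a median of 0.07. Without SHT replicate 2, 3 were higher, and 2 were lower without CK replicate 2, SHT replicate 2 or SHT replicate 3. An ATP-dependent DNA ligase, Gene_23740, rose from 71.8, 100.2 and 84.1 to 212, 145 and 230.1 CPM (1.19 ± 0.20), and PCNA, Gene_11982, the sliding clamp of replication, did not pass (0.57). Splicing and RNA binding had 7 of 90 higher (7.78%) and 8 lower (8.89%), with a median of 0.11 and 3 higher without CK replicate 1. Among those that fell were helicases of prp43 type, which take spliceosomes apart. Gene_17109 went from 34.6, 35 and 39.5 CPM at 25 °C to 10.4, 10.8 and 8.04 at 32 °C and 9.82, 6.44 and 5.74 at 36 °C (-2.30 ± 0.24), its neighbour Gene_17110 changed by -2.04 ± 0.26 and Gene_12498 by -1.54 ± 0.26. With the helicase Gene_17108 named above, Gene_17109 and Gene_17110 lie in a row and need not be separate genes. Decapping enzymes, which open messengers to decay, fell as well (Gene_4699 by -1.40 ± 0.25).

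Ubiquitin, proteasome and autophagy had 4 of 88 higher (4.55%, against 10.8% over all unigenes) and 9 lower (10.2%, against 10.9%), with a median of 0.06. The 29 unigenes with the proteasome, the protease that destroys tagged proteins, in their description lay between -1.02 and 1.54 with a median of 0.25, and 1 rose and 1 fell. The rise was Gene_4804, a tethering factor of nuclear proteasomes (7.91, 7.63 and 8.52 to 24.4, 20.1 and 25.5 CPM, 1.54 ± 0.24). Polyubiquitin, Gene_25638, the tag itself, was at 343, 343 and 308 CPM at 25 °C and 535, 743 and 581 at 36 °C and missed the fold threshold (0.90). Peptidases had 6 of 86 higher (6.98%) and 5 lower (5.81%), with a median of 0.02 and 3 lower without CK replicate 1. A subtilisin-like protease, Gene_7234, fell from 60.1, 39.6 and 66.6 to 15.5, 7.77 and 13 CPM (-2.19 ± 0.28), and the most counted serine protease, Gene_14120, did not pass (-0.32). The 612 unigenes with another informative description had 50 higher (8.17%) and 47 lower (7.68%), with a median of 0.04. Among them the Tcp11-domain protein Gene_3557 fell from 386, 533 and 662 to 94.5, 129 and 113 CPM (-2.23 ± 0.22), and the NAD-P-binding protein Gene_21283 rose from 17.9, 55.3 and 19.4 to 347, 79.6 and 464 (3.25 ± 0.66, 3.99 without CK replicate 2).

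Many of the largest changes belonged to unigenes without an informative description. The steepest falls with at least 100 CPM in CK were those of Gene_11968, Gene_9102 and Gene_11960. Gene_11968, a hypothetical protein, was at 163, 316 and 205 CPM at 25 °C, 9.57, 8.66 and 11.7 at 32 °C and 4.75, 4.17 and 3.89 at 36 °C, an edgeR log2 fold change of -5.73 ± 0.29 (SE, adjusted p = 1.13e-06). Gene_11960 (348, 884 and 547 to 16.7, 13.1 and 20.9 CPM, -5.13 ± 0.37) and Gene_11952 (865, 1521 and 997 to 50.1, 52.1 and 56.3 CPM, -4.42 ± 0.25) lie close to it in the numbering, and all 3 were down to near their SHT level at 32 °C (-4.52, -4.38 and -4.33). Between them, Gene_11956 fell less (-1.79 ± 0.23).

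Among the rises with at least 100 CPM in SHT, Gene_5798, a hypothetical protein, was at 1.76, 1.91 and 2.62 CPM at 25 °C, 53.3, 47.8 and 124 at 32 °C and 145, 81.5 and 176 at 36 °C, an edgeR log2 fold change of 5.97 ± 0.50 (SE, adjusted p = 2.62e-05). Gene_10461 rose from 6.15, 8.47 and 8.95 to 113, 127 and 153 CPM (4.04 ± 0.30) with little spread. Gene_3600 rose mainly at 36 °C (17.9, 12.9 and 11.1 CPM at 25 °C, 31.3, 37.5 and 73.5 at 32 °C and 486, 129 and 771 at 36 °C, 5.06 ± 0.65, 4.46 without SHT replicate 3), as was Gene_11257 (5.57, 9.74 and 4.37 CPM at 25 °C, 11.7, 26.5 and 26.1 at 32 °C and 122, 59.1 and 145 at 36 °C, 4.03 ± 0.45). Gene_1889 was most variable, at 286, 416 and 1759 CPM in MHT and 166, 794 and 241 in SHT from 11.1, 10.4 and 3.93 in CK (5.57 ± 1.00, 4.59 without SHT replicate 2). Gene_16106 shows the weight of CK replicate 2, with 1.46, 32.2 and 3.49 CPM in CK and 311, 88.3 and 391 in SHT, 4.37 over all libraries and 6.66 without it.

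DEGs often lay next to one another in the numbering of unigenes. Of 2508 DEGs whose next tested unigene matches another protein, 742 (29.6%) had that next unigene called in the same direction, against 10.8% and 10.9% of all unigenes called higher and lower. Unigenes that match different proteins may still overlap or be pieces of 1 transcript, which was not tested. The share therefore need not stand for separate genes. Runs of consecutive tested unigenes that were all called in 1 direction and matched at least 5 proteins numbered 11, with 3 higher, 8 lower and 75 unigenes in all. Whether the numbering follows the genome is not given in the sources used here. These runs were found by their calls and are described only.

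The run of the largest rise was Gene_11133 to Gene_11144, 10 unigenes with log2 fold changes of 1.88 to 4.05. It holds 2 cytochrome P450s (Gene_11138 and Gene_11140), an FAD-binding protein (Gene_11141), Gene_11143, the most counted unigene of SHT, and 6 others without an informative description. Its summed level was 975, 1863 and 725 CPM at 25 °C, 4636, 3435 and 5970 at 32 °C and 6229, 4754 and 9099 at 36 °C. A second run, Gene_24650 to Gene_24660, with 9 unigenes at 1.18 to 3.84, went from 85.5, 293 and 88.4 CPM at 25 °C to 662, 398 and 883 at 32 °C and 1669, 627 and 2568 at 36 °C. Both runs match 5 proteins in common, in the same order, so they may be copies or alleles of 1 stretch, which was not tested. In both, CK replicate 2 was the highest of CK and SHT replicate 2 the lowest of SHT. For Gene_11135, the log2 fold change of 4.05 became 4.83 without CK replicate 2, and for Gene_24654 3.68 became 4.43. Without that library Gene_11138, Gene_11140, Gene_11141 and Gene_24660 stood at 4.44, 4.04, 3.26 and 4.90.

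The third rising run, Gene_2658 to Gene_2664, held the peptide synthetase-like unigenes, with log2 fold changes of 1.08 to 3.10. Its first unigene, Gene_2658 (2.68), was least certain, and its call was lost without SHT replicate 3 (2.23), SHT replicate 1 (2.55), CK replicate 3 (2.36) or MHT replicate 3 (2.68), while without CK replicate 2 it stood at 3.93. Among the falling runs, Gene_18225 to Gene_18231 held the fatty acid synthase unigenes that fell, beside others. Its 7 unigenes match 5 proteins and summed to 1945 CPM at 25 °C, 1836 at 32 °C and 583 at 36 °C. Its log2 fold changes were -2.02 to -1.06. At 32 °C its median log2 fold change was -0.12, against 1.86 and 2.09 in the first 2 rising runs. Gene_5079 to Gene_5083 ends in the cerato-platanin and went from 1849 CPM at 25 °C to 794 at 32 °C and 289.9 at 36 °C. Gene_23206 to Gene_23217 (8 unigenes, -1.94 to -1.17) and Gene_10732 to Gene_10738 (6 unigenes, -3.38 to -1.19) hold no informative description, and the last of these, Gene_10738 (-1.27), lost its call without CK replicate 1 (-1.15) or SHT replicate 3 (-1.07).

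**Figure D4:**
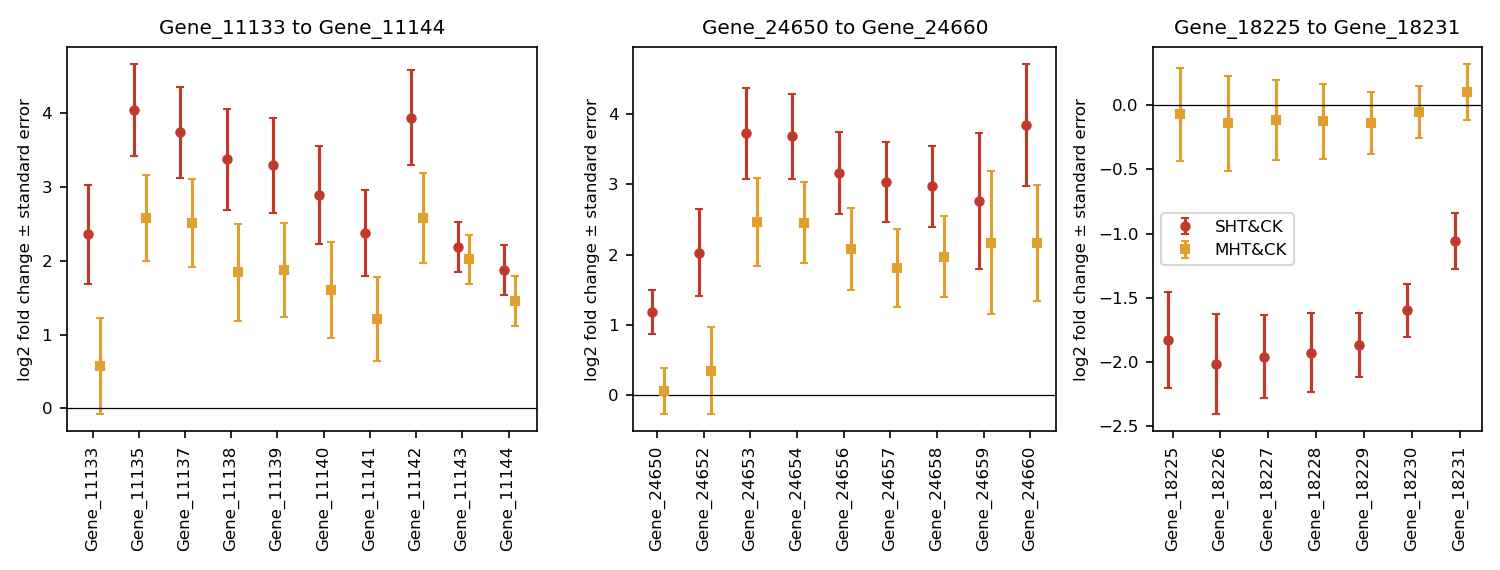
Log2 fold change ± standard error of each unigene of 3 runs of consecutive tested unigenes, in SHT&CK (circles) and MHT&CK (squares). The rising runs lie at 1.88 to 4.05 and 1.18 to 3.84 in SHT&CK with medians of 1.86 and 2.09 in MHT&CK. The run that holds fatty acid synthase unigenes lies at -2.02 to -1.06 in SHT&CK with a median of -0.12 in MHT&CK.

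Unigenes silent at 25 °C were few and mostly faint. In CK 364 unigenes had no count in any library, in SHT 148. Of those silent in CK, 29 had a count in all 3 SHT libraries, and they were outside the test. They summed to a median of 11 counts over SHT, with 5 at 30 or more and 13 under 10. A sum of 0 over the CK libraries allows up to 3 counts, and this limit, which covers counting error only, is the floor for the fold changes given here.

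The clearest was Gene_19135, a hypothetical protein with 77, 13 and 82 counts in SHT and 4, 1 and 3 in MHT, at least 42.4-fold higher in SHT than the floor of 3 counts over CK. Gene_13654, also hypothetical, had 67, 15 and 58 counts in SHT and 9, 9 and 11 in MHT, at least 34.5-fold higher. In both, SHT replicate 2 had the fewest. Gene_17614 matches the same protein as Gene_13654 and had 9, 4 and 15 counts (at least 6.90-fold higher). Gene_5784 had 12, 18 and 14 counts (at least 10.8-fold higher), Gene_23372 13, 12 and 12 (at least 9.12-fold higher) and Gene_16833 14, 7 and 9 (at least 7.39-fold higher), with SHT replicates close to each other.

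Of the 29 unigenes 3 have an informative description. Gene_24804, a copper radical oxidase, had 5, 5 and 1 counts, Gene_15673, of glycoside hydrolase family 13, had 2, 4 and 1, and Gene_14157, a P-loop nucleoside triphosphate hydrolase, had 1, 2 and 3. At such counts the presence of a transcript is all that can be read. The 29 unigenes were mostly also seen at 32 °C. In MHT 24 of the 29 had a count and 9 had one in all 3 libraries, and 5 had none, of which Gene_20619 with 3, 2 and 10 counts was the highest in SHT. Tested unigenes within 5 numbers of a silent one, counted anew for each silent unigene they lie near, came to 98. Of these 11.2% were called higher and 9.18% lower, near the shares over all unigenes. Some of them are counted more than once.

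The mirror set, with a count in every CK library and none in SHT, held 8 unigenes. Gene_19666, a hypothetical protein, had 9, 44 and 31 counts in CK and 23, 19 and 0 in MHT, at least 37.9-fold lower in SHT. The only informative description was that of Gene_7134, a mannanase, with 1, 2 and 2 counts in CK. The other 6 had 7 to 16 counts over CK.

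**Figure D5:**
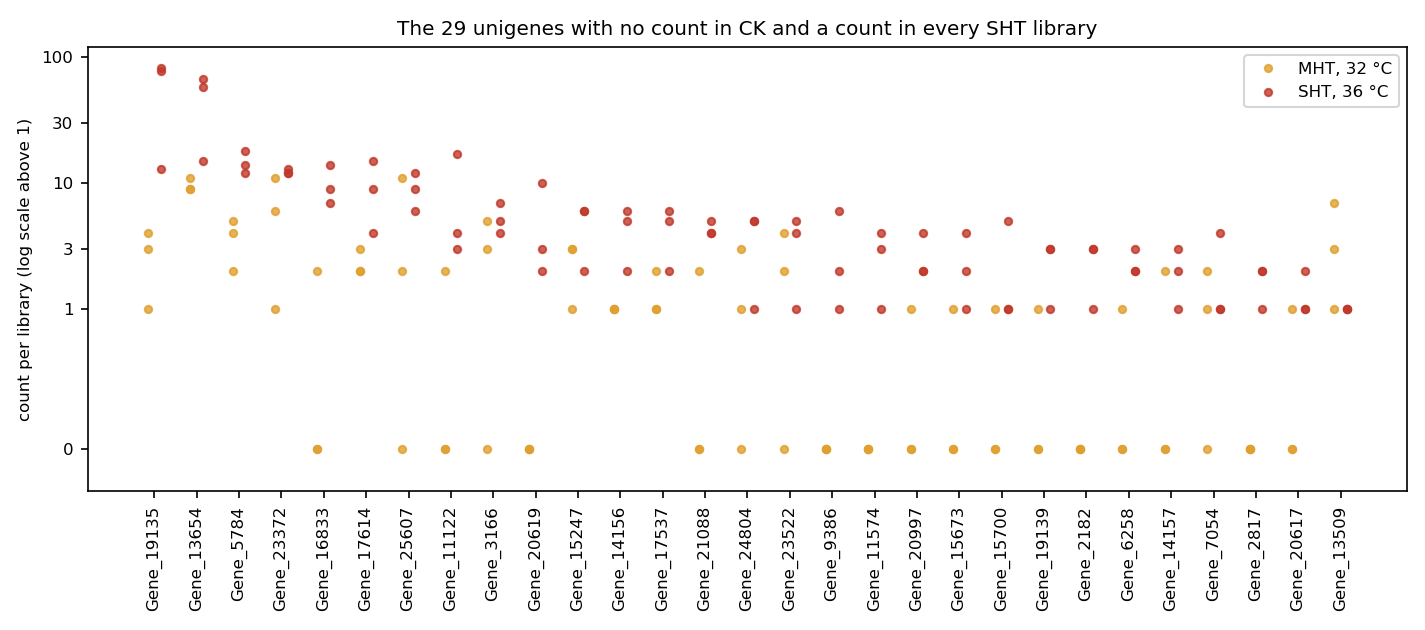
Counts in each MHT and SHT library (axis linear up to 1 and on a log scale above) of the 29 unigenes with no count in CK and at least 1 in every SHT library, ordered by their sum in SHT. The first 2 reach 82 and 67 counts, and most of the rest stay under 10.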

How the data were processed

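RNA was sequenced from whole mycelium, and the authors deposited raw counts of reads per unigene for the 9 libraries. Per the study's methods and the submitters' processing notes, reads were filtered with fastp (at least 75 bp kept), rRNA reads were removed with Bowtie2, and the rest were aligned with HISAT2 to the genome of a strain other than the one sampled and assembled and counted with StringTie. Versions, strand use and gene lengths were not found in the sources used. Levels are therefore not corrected for length, and rankings of unigenes by counts or CPM are of reads, not of transcript abundance. Reads of near-identical copies or overlapping unigenes may have been split between them. Runs of adjacent unigenes with the same match may be pieces of 1 gene.

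Counts were scaled by TMM and fitted in edgeR 4.0.16 (R 4.3.3) by the quasi-likelihood test with robust dispersions, in a model of the 3 groups over all 9 libraries. Unigenes with a count above 0 in all 9 libraries were tested (935 were not), and p-values were adjusted by Benjamini-Hochberg over all of them. The common biological coefficient of variation was 0.221. SHT&MHT and MHT&CK come from the same fit and share libraries with SHT&CK. Exact permutation tests were run in scipy 1.17.1, and the fit was tested on simulated data. The alternatives were DESeq2 1.42.0, other scalings and filters, other thresholds, each library left out, and adjacent unigenes of 1 description summed.

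Each unigene was put in the first of 36 classes whose words matched its description, so that a few stand in a neighbouring class. The class words were revised once after the descriptions, not the values, had been read. Members, classes and lists were chosen with earlier results of these data known. Named unigenes were, in a class of at least 5 tested, up to 4 DEGs of largest change with non-overlapping groups and a mean of at least 5 CPM, and the most counted member. To these were added the 20 most counted of CK and of SHT and the 10 largest rises and falls with at least 100 CPM in the higher group. For silent unigenes the rule took the 10 with most counts in SHT. Other unigenes, and the families named by a word in the description, were chosen after their values were seen. Not all unigenes that the rule gave are described.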

Additional observations from a re-analysis of the deposited data

Results flagged for a closer look

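For 5 of the 13018 unigenes tested the change at 36 °C had the opposite direction to that at 32 °C. They were chosen as called in opposite directions in SHT&CK and MHT&CK of the same fit. A large difference between SHT and MHT follows from that choice, so its values are a description and no further support. Gene_4314, a major facilitator transporter, was at 1.46, 1.48 and 2.18 CPM at 25 °C, 6.93, 7.4 and 8.84 at 32 °C and 0.613, 0.947 and 0.555 at 36 °C, with a log2 fold change of -3.42 in SHT&MHT (edgeR adjusted p = 6.40e-04). Gene_8567, a methyltransferase, stood at 36.6, 25.2 and 33.6 CPM at 25 °C, 98.2, 61.7 and 113 at 32 °C and 11.8, 23.7 and 8.52 at 36 °C (-2.63 in SHT&MHT). Gene_10596 and Gene_16124 are described only as hypothetical or uncharacterized. Gene_10596 had -2.86 in SHT&MHT. Gene_16124 was at 128, 101.7 and 109 CPM at 25 °C, 296, 349 and 357 at 32 °C and 37.4, 62.9 and 25.4 at 36 °C (-2.996), and it was the one of the 5 whose SHT&CK call held without any 1 library. The SHT&CK log2 fold change of Gene_4314 was -1.27, and the call was lost without CK replicate 1 (-1.37), CK replicate 2 (-1.38), CK replicate 3 (-1.05), SHT replicate 1 (-1.19) or SHT replicate 3 (-1.15). That of Gene_8567 was -1.12, lost when CK replicate 1 (-1.003), CK replicate 3 (-1.07), SHT replicate 1 (-0.99) or SHT replicate 3 (-0.86) was left out, and that of Gene_10596 was -1.27, with the same libraries (-1.16, -1.23, -1.08 and -1.15 in that order). The other direction was taken by Gene_5871, elongation factor 2, which moves the ribosome along, at 39, 121 and 79 CPM at 25 °C, 33.5, 25.6 and 25.7 at 32 °C and 217, 83.9 and 286 at 36 °C (2.79 in SHT&MHT), and here SHT replicate 2 lay within the CK values. Its SHT&CK log2 fold change of 1.29 passed without CK replicate 2 or SHT replicate 2, and the call was lost without any 1 of the other 7 libraries (0.91 without SHT replicate 3 to 1.29 without MHT replicate 1). The choice required a call in MHT&CK as well, where Gene_5871 was near the threshold (edgeR adjusted p = 0.0499).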

How the results depend on the processing

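The number of DEGs was 2821 and lay between 2388 and 2968 when each library was left out in turn. It was 2828 with RLE scaling, 2826 with upper quartile scaling, 2858 with DESeq2, 2863 without a filter, 2791 with the CK and SHT libraries alone and 2212 at an adjusted p under 0.01. A test against an absolute log2 fold change of 1 (glmTreat) called 606, of which 268 were higher and 338 lower. Summing adjacent unigenes of 1 informative description gave 2745 of 12638, and summing adjacent unigenes that match 1 protein, an alternative chosen after seeing the data, gave 2487 of 11445. With the replicate number as a block the count was 2767. The numbers do not pair the libraries, since the correlations of the deviations of same-numbered CK and SHT libraries were -0.127, -0.177 and -0.0663, and no library correlated best with its own number. Of the 203 unigenes the rule gave, 171 were called, and 161 of these kept the call with any 1 library left out. The rule took mostly large changes with non-overlapping groups, so this count is partly set by the choice. Unigenes named outside the rule are not in it. Without SHT replicate 3, 7 of the 171 lost the call, and none of the 171 changed sign under any alternative. glmTreat called 69 fewer and a threshold of 0.01 10 fewer. The silent unigenes numbered 29, and 41 to 68 when a CK or SHT library was left out, which relaxes the rule. They were 92 when up to 2 counts in CK were allowed and 31 when at least 10 counts in SHT were asked in place of a count in every library. The 50 most counted unigenes of CK lost 9.97 percentage points of the counts in SHT (8.94 to 10.8 with 1 library left out), the 20 most counted lost 7.74, and on TMM-scaled CPM the loss was 12.3. The libraries hold 3925786 to 6180053 counts, which limits the silent unigenes and others at a few counts most, and 3 cultures per group leave an exact permutation test no p under 0.1.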
